A study of Mus musculus with 16 samples.

Results

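*Ccl2*, *Ccl7*, *Cxcl1*, *Cxcl2*, *Cx3cl1*, *Il6*, *Csf1*, *Csf3* and *Lif* encode chemokines and cytokines that endothelial cells can release, and they were taken as a list of gene symbols, drawn up with earlier results of these data known. They are 9 of 55414 genes listed for cultured mouse lung endothelial cells (MLECs), and all 9 were among the 15693 genes with enough reads to be tested. The experiment asked which transcripts respond to BMP9 (a circulating growth factor that signals through ALK1 on endothelium) with and without its co-receptor endoglin (ENG). MLECs of 4 isolations were each split into vehicle-treated cells (Ctrl) and cells that lost *Eng* after 4-OH-tamoxifen (KO). Each was then given PBS or ligand at 0.2 ng/ml of the BMP9 growth factor domain for 90 min, which made 4 groups of 4 libraries: PBS (Ctrl PBS and KO PBS), sENG(M):BMP9 for Ctrl and pro:BMP9 for KO cells.

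All 4 groups carry *Rosa26-CreERT2*, *Eng* fl/fl and the Immorto transgene, a conditional large T antigen that keeps cells dividing. *Rosa26* is active in most cell types, so the driver itself does not limit the deletion to endothelial cells. Deletion in other cells of these cultures was not measured. All groups were maintained with interferon-γ and the TGF-β type I receptor inhibitor SB431542, were moved to medium without them and were serum-starved before ligand was added. The ligand given to Ctrl cells was sENG(M):BMP9, in which a monomer of soluble ENG holds BMP9, whereas KO cells were given pro:BMP9, in which the prodomain does so. Soluble ENG was in large excess in the ligand of Ctrl cells, and the other groups were given none. Therefore genotype, exposure to 4-OH-tamoxifen, the form of the ligand and the excess of soluble ENG cannot be told apart. Ligand against PBS in Ctrl cells also includes this excess. The labels call the control cells WT, although they carry the floxed allele.

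Chemokines are small secreted proteins that guide leukocytes along endothelium through G protein-coupled receptors. CC chemokines such as *Ccl2* and *Ccl7* draw monocytes through CCR2, and the CXC chemokines *Cxcl1* and *Cxcl2* draw neutrophils through CXCR2, while *Cx3cl1* (fractalkine) is made as a membrane-bound adhesion protein that ADAM10 and ADAM17 release. *Csf1* and *Csf3* are colony-stimulating factors for macrophages and for neutrophils. *Il6* and *Lif* signal through the shared receptor chain gp130, encoded by *Il6st*. Transcription of many of these genes is known to be driven by NF-κB, which binds κB sites near their start sites, and several of their mRNAs are short-lived.

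*Cxcl1* and *Cxcl2* lie side by side on chromosome 5, 10755 bases apart, and encode proteins that share a receptor, and *Cxcl2* fell past the threshold in both ligand comparisons given further on, while the call of *Cxcl1* depended on the fit. Their promoters are therefore shown. The sequences are the 250 bases before the start site from RefSeq (GRCm38.p6, plus strand, 5′ to 3′), and they lie at chr5:90890995-90891244 for *Cxcl1* and chr5:90903649-90903898 for *Cxcl2*. Capitals mark matches to GGGANNTTC, a κB motif searched on both strands.
Cxcl1: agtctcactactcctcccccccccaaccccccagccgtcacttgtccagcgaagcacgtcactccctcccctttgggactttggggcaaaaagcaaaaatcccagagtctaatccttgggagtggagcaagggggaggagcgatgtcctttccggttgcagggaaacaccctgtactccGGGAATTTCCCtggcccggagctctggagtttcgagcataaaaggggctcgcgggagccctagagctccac
Cxcl2: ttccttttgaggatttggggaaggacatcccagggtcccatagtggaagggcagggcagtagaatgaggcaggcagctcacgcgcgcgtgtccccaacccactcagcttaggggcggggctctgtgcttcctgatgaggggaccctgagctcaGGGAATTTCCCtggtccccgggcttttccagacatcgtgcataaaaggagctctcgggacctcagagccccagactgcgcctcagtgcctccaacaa

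In both promoters the capitals join 2 overlapping matches, one on each strand. The match on the printed strand begins 71 bases before the start in *Cxcl1* and 97 bases before it in *Cxcl2*, and it opens the longest run of letters the promoters have in common, 14 bases. The table of promoters held 6 of the 9 genes (*Csf1*, *Il6*, *Cxcl1*, *Cxcl2*, *Cx3cl1* and *Lif*). A κB match was found in 4 of these 6 (*Csf1*, *Cxcl1*, *Cxcl2* and *Il6*), against 3.23% of 32851 promoters of the same length. The AP-1 motif TGANTCA was found in *Il6* and *Lif* (6.75% of all promoters) and the GC-rich SMAD motif GGCGCC in *Cx3cl1* (9.59%). None of the 6 held the CRE motif TGACGTCA (1.55%), the STAT motif TTCNNNGAA (7.02%), the interferon response motif GAAANNGAA (7.13%) or the pair of SMAD boxes GTCTAGAC (0.167%). These are matches of letters in this window only, and binding was not measured.

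In GRCm39, the build of the deposited table, *Cxcl1* (ENSMUSG00000029380) lies on chromosome 5 from 91039100 to 91040974 and *Cxcl2* (ENSMUSG00000058427) from 91051730 to 91053797. *Il6* (ENSMUSG00000025746) is also on chromosome 5, from 30218112 to 30224979. *Ccl2* (ENSMUSG00000035385, 81926397 to 81928279) and *Ccl7* (ENSMUSG00000035373, 81936538 to 81938351) are neighbours on chromosome 11, 8258 bases apart. Chromosome 11 also holds *Lif* (ENSMUSG00000034394, 4207557 to 4222514) and *Csf3* (ENSMUSG00000038067, 98592089 to 98594455). *Csf1* (ENSMUSG00000014599) is on chromosome 3 from 107648364 to 107667785, on the minus strand, and *Cx3cl1* (ENSMUSG00000031778) on chromosome 8 from 95498637 to 95509055. In GENCODE vM39 none of the 9 overlaps another gene on its own strand. *Cx3cl1*, *Il6*, *Csf1* and *Csf3* each overlap a non-coding or predicted gene on the opposite strand. The libraries were stranded, but the strand setting of the counting is not given, so how reads in these overlaps were counted is not known.

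The libraries held between 14869115 and 17242117 reads on genes. Loss of *Eng* was seen in every KO library: *Eng* was at 375 to 594 CPM in Ctrl PBS and at 40.1 to 60.0 CPM in KO PBS (CPM are counts scaled to a common library size after TMM normalisation). With ligand it was at 525 to 776 CPM in Ctrl and at 115 to 129.8 CPM in KO cells. The BMP target genes *Smad6* and *Id1* rose with ligand in both genotypes, *Smad6* by log2 fold changes of 3.45 in Ctrl and 3.21 in KO cells and *Id1* by 2.51 and 2.55. Of 10 endothelial markers all were expressed, with summed levels of 3452 to 7579 CPM over the 16 libraries. Lymphatic endothelial markers summed to 3558 to 7145 CPM, most of it *Lyve1* (4241 CPM on average). Markers of fibroblasts and mural cells summed to 219 to 874 CPM. Leukocyte markers summed to 35.2 to 50.4 CPM, most of it *Cd68* and *Lyz2*, while the defining genes *Ptprc* and *Adgre1* had at most 5 and 6 counts in any library. Epithelial markers summed to 49.6 to 179.6 CPM, most of it *Krt18* and *Krt8*, while *Epcam* had at most 4 counts and *Sftpc* none. In such bulk libraries, fewer cells of a type and less RNA per cell cannot be told apart.

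*Ccl2* was among the most abundant transcripts of these cells. Its length-corrected level was 1528 ± 213 RPKM (CPM per kilobase of gene length, mean ± SD, n = 16 libraries), the 4th highest of the 15693 tested genes, and it took 0.173% of all reads. *Cxcl1* (318 ± 65.0 RPKM), *Csf1* (309 ± 37.2 RPKM) and *Ccl7* (261 ± 48.0 RPKM) followed at ranks 92, 99 and 130. *Cxcl2* stood at 163 ± 41.3 RPKM, *Cx3cl1* at 88.6 ± 49.4 RPKM and *Csf3* at 87.7 ± 42.2 RPKM, ranks 239, 511 and 515. *Lif* was lower, at 24.5 ± 4.42 RPKM (rank 2228). *Il6* was near the low end, at 1.54 ± 1.06 RPKM (rank 11198), with 18 to 166 reads in a library.

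Of the steps in this order, 3 held in all 16 libraries without overlap of the ranges: *Ccl2* above *Cxcl1*, *Csf3* above *Lif*, and *Lif* above *Il6*. The other neighbours overlapped in RPKM. *Cxcl1* was above *Csf1* in 11 of 16 libraries and *Cx3cl1* above *Csf3* in 9 of 16. *Csf1* exceeded *Ccl7* in 15 libraries, and *Ccl7* exceeded *Cxcl2*, and *Cxcl2* exceeded *Cx3cl1*, in 14 each.

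**Figure D1:**
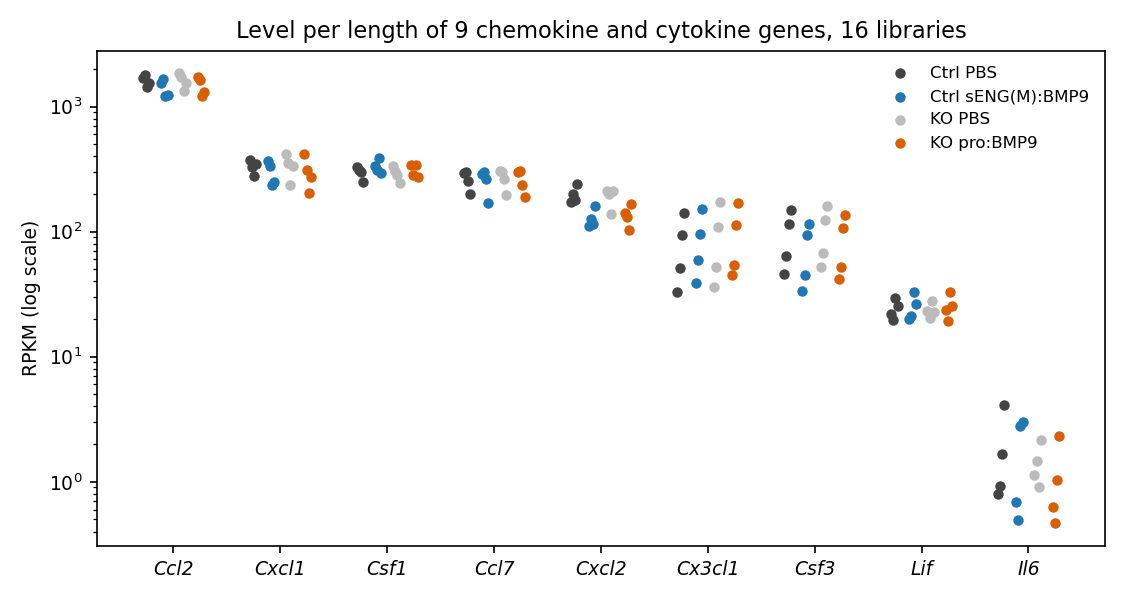
RPKM on a log axis of the 9 genes in each of the 16 libraries, coloured by group and ordered by mean level. *Ccl2* lies between 1217 and 1849.7 RPKM, *Il6* between 0.467 and 4.13 RPKM, and *Cx3cl1* and *Csf3* spread several-fold within each group.

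The isolation set most of the variation of 8 of the 9 genes. It held 97.6% of the variance of log2 CPM for *Cx3cl1*, 95.9% for *Ccl7*, 91.9% for *Csf3* and 88.5% for *Lif*, against a median of 63.8% over all tested genes. *Cxcl1*, *Ccl2*, *Il6* and *Csf1* lay between 60.7% and 79.0%. *Cxcl2* was the exception: the isolation held 29.5% of its variance and the 4 groups 60.6%, where the median gene had 8.79% between groups.

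*Cx3cl1*, *Il6* and *Csf3* differed most between isolations, and all 3 were highest in isolation 4 and lowest in isolation 1. Over the 4 libraries of an isolation, *Cx3cl1* averaged 625 ± 59.7 CPM in isolation 4 and 149.9 ± 19.7 CPM in isolation 1 (SD, n = 4), a ratio of 4.17. *Il6* averaged 7.06 ± 2.18 and 1.96 ± 0.540 CPM, a ratio of 3.59, and *Csf3* 198 ± 26.8 and 61.2 ± 11.3 CPM, a ratio of 3.23. The other 6 differed by 1.26 times (*Csf1*) to 1.66 times (*Cxcl1*). *Ccl7* went the other way, with 151 ± 10.4 CPM in isolation 4 and 239 ± 5.56 CPM in isolation 1.

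Marker genes also differed between isolations. Endothelial markers summed to 5706 to 6478 CPM in isolation 1, 7492 to 7579 in isolation 2, 3452 to 3740 in isolation 3 and 5212 to 5544 in isolation 4. Fibroblast and mural markers summed to 675 to 874, 219 to 233, 732 to 836 and 426 to 654 CPM in the same isolations. Their part in the spread of the 9 genes was not tested. Except in fits named as without the replicate block, the comparisons below keep the isolation as a block and are made within isolations.

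**Figure D2:**
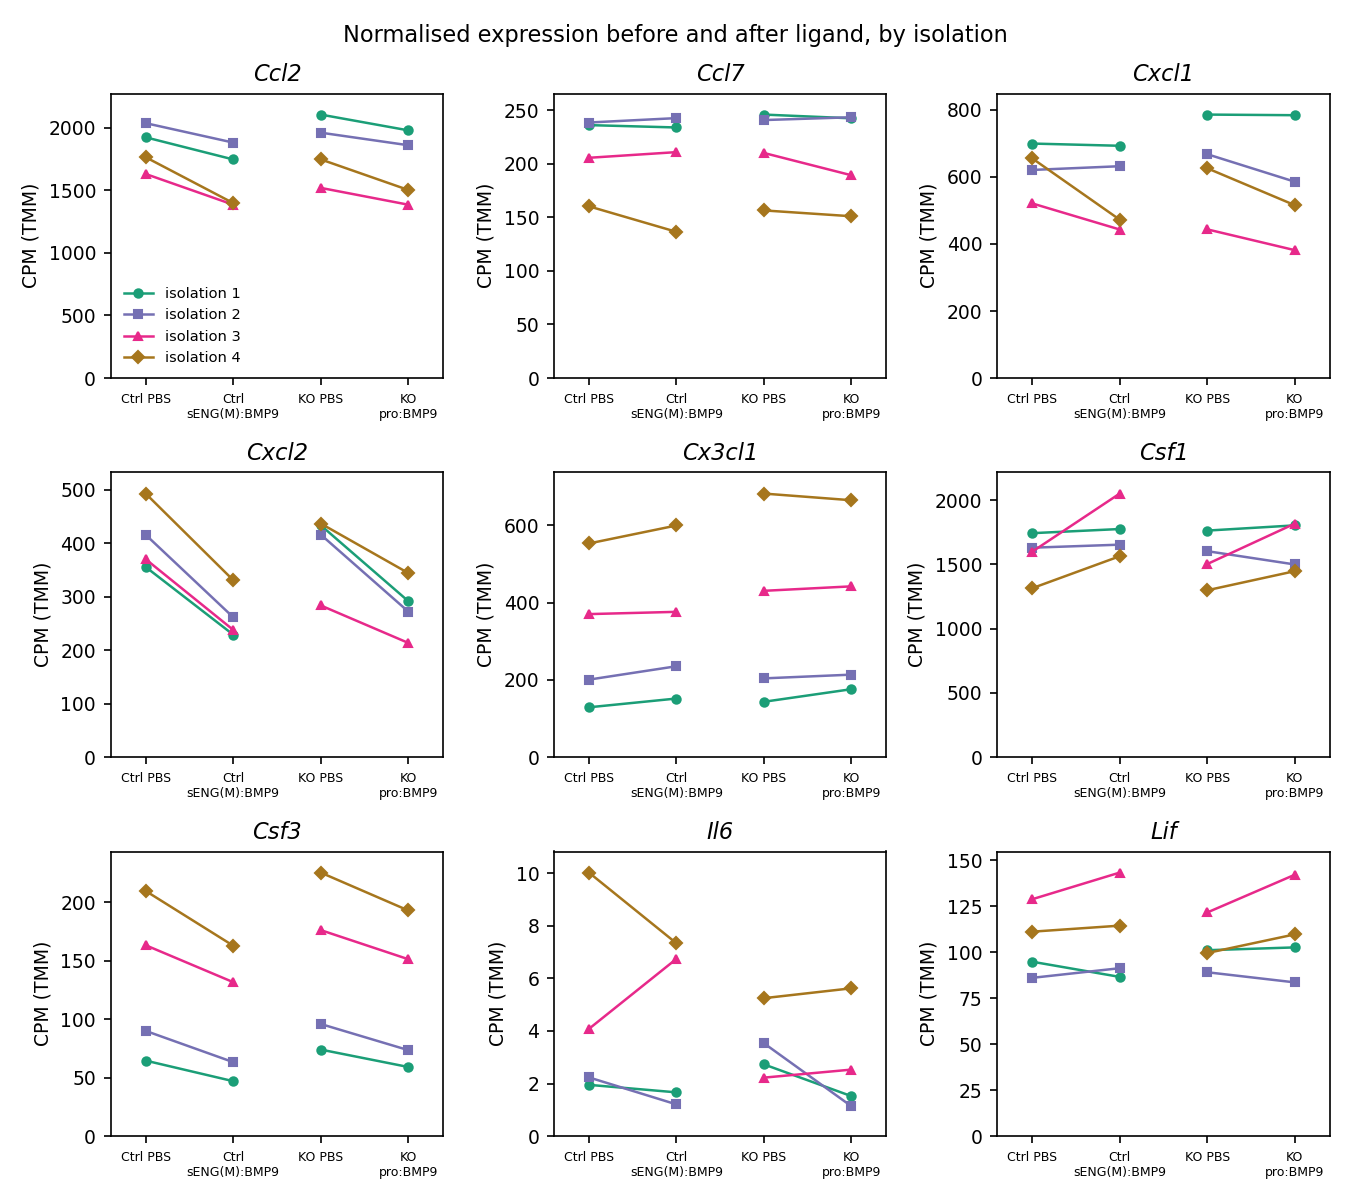
CPM of each gene (1 panel per gene, axes from 0) in the 4 groups, with a line joining PBS and ligand of the same isolation and genotype. The lines of *Cxcl2* and *Csf3* fall in all 4 isolations of both genotypes, and the isolations of *Cx3cl1* and *Csf3* keep the same order in every group.

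Some of these genes fell with ligand in each genotype, and none rose past the threshold in the model of all 16 libraries, although *Cx3cl1* and *Csf1* did in Ctrl cells in other fits. With edgeR's quasi-likelihood test at an adjusted p under 0.05, 3 of the 9 (*Cxcl2*, *Csf3* and *Ccl2*) fell in Ctrl cells given sENG(M):BMP9 and none rose, where 9.69% of all tested genes changed and 3.83% fell. In KO cells 2 of the 9 (*Cxcl2* and *Csf3*) fell with pro:BMP9 and none rose, where 5.59% of all tested genes changed and 1.92% fell. The median log2 fold change over the 9 genes was -0.08 in Ctrl and -0.13 in KO cells, against -0.01 and 0.00 over all tested genes.

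*Cxcl2*, the neutrophil chemokine, had the largest fold change of the genes that passed. In Ctrl PBS it was at 356, 416, 370.4 and 493 CPM in isolations 1 to 4, and with sENG(M):BMP9 at 229, 262, 238 and 331 CPM. Every ligand-treated Ctrl library was below every Ctrl PBS library, while the other ligand comparisons of the 9 genes overlapped. The share of all tested genes without overlap was not counted, so how unusual this is cannot be said. The log2 fold change was -0.63 (SE 0.0808, adjusted p = 2.14e-05), and the level fell by 35.3%, in 4 of 4 isolations.

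In KO cells *Cxcl2* was at 434, 416, 284 and 437 CPM with PBS and at 292, 272, 214 and 345 CPM with pro:BMP9. Each isolation fell, and the groups overlapped only through isolation 3, which had the lowest level in both. The log2 fold change was -0.49 (SE 0.0808, adjusted p = 5.68e-04, lower in 4 of 4 isolations). Without the replicate block the adjusted p was 0.144 in Ctrl and 0.653 in KO cells.

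*Cxcl1*, its neighbour, moved less. In Ctrl cells it was at 699, 621, 521 and 655 CPM with PBS and at 693, 632, 443 and 472 CPM with ligand, so isolations 1 and 2 barely moved while isolations 3 and 4 were lower. In KO cells it was at 786, 668, 444 and 626 CPM with PBS and at 784, 586, 381 and 516 CPM with ligand. The log2 fold changes of -0.18 (SE 0.0760, adjusted p = 0.195) and -0.17 (SE 0.0760, adjusted p = 0.312) did not pass the threshold. *Cxcl1* did pass in KO cells in a fit of only the 8 KO libraries (adjusted p = 0.00661), and in both genotypes with no filter on low counts (adjusted p = 3.79e-05 and 1.63e-04). The fit with no filter was more liberal: between genotypes in PBS it called 204 genes, where the fit with the filter called 3.

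Within each isolation the log2 fold change of *Cxcl2* was below that of *Cxcl1*, in both genotypes. The difference of log2 fold changes averaged -0.46 ± 0.266 in Ctrl cells (SD, n = 4 isolations, from -0.69 to -0.10) and -0.31 ± 0.226 in KO cells (from -0.57 to -0.06). The two-sided exact sign-flip permutation p was 0.125 in each genotype, the smallest that 4 isolations allow. The same test of the other neighbours, *Ccl7* minus *Ccl2*, gave a mean difference of 0.16 ± 0.0760 in Ctrl (exact p = 0.125) and 0.08 ± 0.0754 in KO cells (exact p = 0.25, with isolation 3 of the opposite sign).

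*Ccl2*, the monocyte chemokine, fell slightly. In Ctrl cells it was at 1923, 2036, 1630.4 and 1764 CPM with PBS and at 1747, 1881, 1385 and 1398 CPM with ligand. Each isolation was lower with ligand, and the groups overlapped because the isolations differ more than the treatments. The log2 fold change was -0.21 (SE 0.0445, adjusted p = 0.00388), and without the replicate block the adjusted p was 1.00.

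In KO cells *Ccl2* was at 2105, 1960.4, 1519 and 1747 CPM with PBS and at 1979, 1860.1, 1385 and 1503 CPM with pro:BMP9. It was lower in 4 of 4 isolations, with a log2 fold change of -0.13 (SE 0.0445, adjusted p = 0.126) that did not pass the threshold. It did in a fit of only the 8 KO libraries (adjusted p = 0.00287) and in the more liberal fit with no filter on low counts (adjusted p = 8.42e-04). *Ccl7*, next to *Ccl2* and read by the same receptor, had log2 fold changes of -0.04 (95% interval -0.14 to 0.05) in Ctrl and -0.05 (-0.14 to 0.04) in KO cells, with levels from 136 to 246 CPM over all libraries.

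*Cx3cl1*, the membrane-bound chemokine, was at 129, 201, 370.3 and 553 CPM in Ctrl PBS and at 152, 235, 376 and 599.8 CPM with sENG(M):BMP9. It was higher with ligand in 4 of 4 isolations by less than the gaps between isolations. The log2 fold change of 0.15 (SE 0.0603, adjusted p = 0.153) did not pass the threshold, nor did that of 0.09 (SE 0.0600, adjusted p = 0.633) in KO cells. The rise in Ctrl cells did pass in a fit of only the 8 Ctrl libraries (adjusted p = 0.0430) and in the more liberal fit with no filter on low counts (adjusted p = 0.00426).

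*Csf3*, the neutrophil growth factor G-CSF, had the smallest adjusted p of the 9 genes in both ligand comparisons. It was at 64.6, 90.0, 163 and 209.8 CPM in Ctrl PBS and at 47.0, 63.3, 132 and 163 CPM with sENG(M):BMP9. In KO cells it was at 74.0, 96.0, 176 and 226 CPM with PBS and at 59.1, 73.6, 151 and 193 CPM with pro:BMP9. Each isolation fell in each genotype, and the groups overlapped because isolations 3 and 4 were high in every group.

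The log2 fold change of *Csf3* was -0.40 in Ctrl (SE 0.0429, adjusted p = 2.18e-06) and -0.28 in KO cells (SE 0.0426, adjusted p = 2.07e-04). Single isolations ranged from -0.51 to -0.31 and from -0.38 to -0.22. Without the replicate block the adjusted p was 1.00 in both.

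*Csf1*, the macrophage growth factor, leaned the other way in Ctrl cells. It was at 1743, 1630.3, 1599 and 1315 CPM with PBS and at 1776, 1654, 2052 and 1564 CPM with sENG(M):BMP9. It was higher with ligand in 4 of 4 isolations, of which isolations 3 and 4 made most of the difference, and the log2 fold change of 0.17 (SE 0.0569, adjusted p = 0.0810) did not pass the threshold. It did without isolation 2 (0.22, adjusted p = 0.0483) and in the more liberal fit with no filter on low counts (adjusted p = 1.71e-06). In KO cells it was at 1764, 1603, 1503 and 1299 CPM with PBS and at 1804, 1499.9, 1818 and 1448 CPM with ligand, a log2 fold change of 0.09 (SE 0.0569, adjusted p = 0.557).

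The gp130 cytokines did not pass the threshold in either comparison. *Lif* lay between 83.6 and 143 CPM in all libraries, with log2 fold changes of 0.04 (95% interval -0.09 to 0.17) in Ctrl and 0.08 (-0.05 to 0.20) in KO cells. For *Il6* the reads were few: 30, 34, 68 and 166 in Ctrl PBS, 28, 18, 116 and 127 with sENG(M):BMP9, 43, 54, 37 and 89 in KO PBS, and 22, 18, 39 and 86 with pro:BMP9. Single isolations of *Il6* went both ways, and the log2 fold changes were -0.08 (95% interval -0.71 to 0.56) and -0.47 (-1.18 to 0.25), both of which include changes in either direction.

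**Figure D3:**
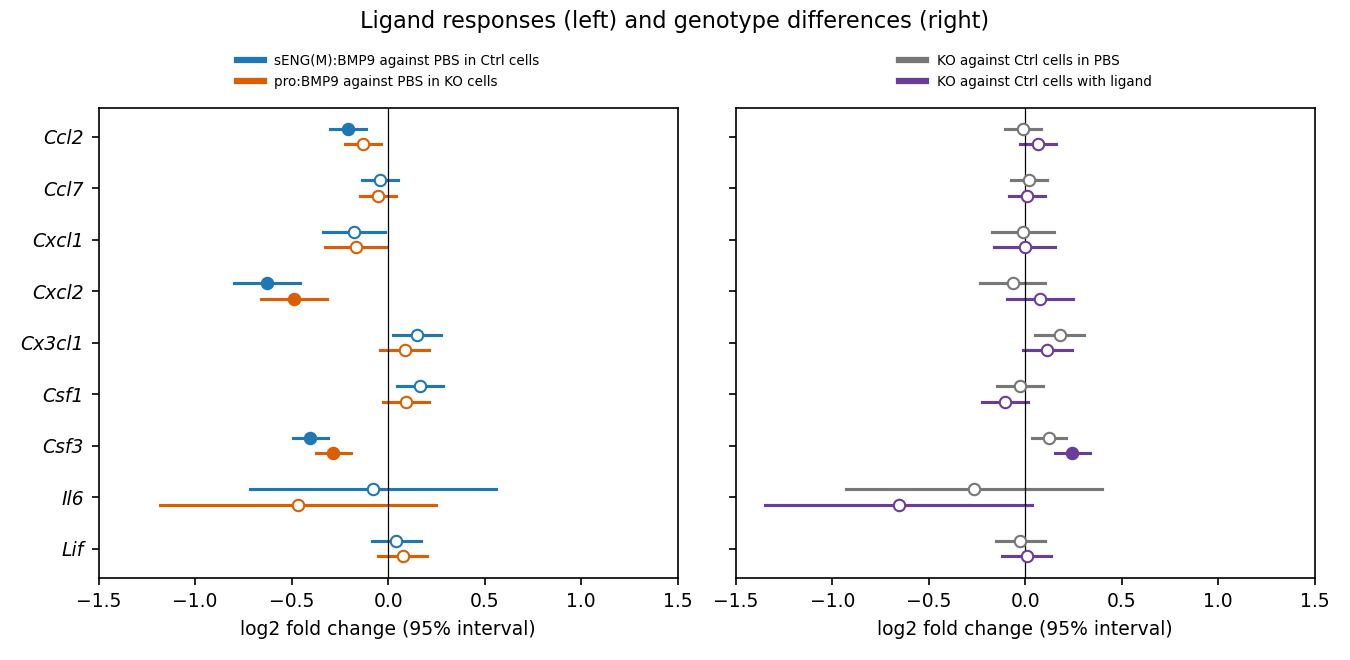
Log2 fold changes of the 9 genes with 95% intervals, filled where the adjusted p was under 0.05: on the left ligand against PBS in Ctrl and KO cells, on the right KO against Ctrl cells in PBS and with ligand. *Cxcl2* and *Csf3* lie left of 0 in both ligand comparisons, *Csf3* lies right of 0 between genotypes, and *Il6* has the widest intervals.

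Loss of *Eng* without ligand left all 9 genes short of the threshold. None was called between KO PBS and Ctrl PBS by edgeR's quasi-likelihood test or by DESeq2, where edgeR called 0.0191% of all tested genes. At an unadjusted p under 0.05 there were 2 of the 9 (*Cx3cl1* and *Csf3*), against 6.82% of all tested genes. *Cx3cl1* was higher in KO PBS in 4 of 4 isolations, by a log2 difference of 0.18 (SE 0.0602, adjusted p = 0.521), and *Csf3* in 4 of 4 by 0.12 (SE 0.0423, adjusted p = 0.530). With no filter on low counts *Cx3cl1* passed (adjusted p = 0.00153), in a fit that called 204 genes here, where the fit with the filter called 3. *Cxcl2*, *Cxcl1* and *Ccl2* had log2 differences of -0.06, -0.01 and -0.01, and each was higher in some isolations and lower in others. In the same comparison 9 of 10 endothelial markers leaned higher in KO cells (median log2 difference 0.08, 0 called). Of 11 fibroblast and mural markers 10 leaned lower (median -0.23, 1 called). The part of these markers in the differences of *Cx3cl1* and *Csf3* was not tested.

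With ligand, *Csf3* was higher in KO than in Ctrl cells, 1 of the 9 genes called, where 0.255% of all tested genes differed and 0.0892% were higher. The levels given above make it 59.1 against 47.0, 73.6 against 63.3, 151 against 132 and 193 against 163 CPM in isolations 1 to 4. The log2 difference was 0.24 (SE 0.0431, adjusted p = 0.0203, 18.5% higher), and KO was higher in 4 of 4 isolations while the groups overlapped.

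The call was lost when isolation 1, 2 or 3 was left out. Without isolation 1 the adjusted p was 0.250, without isolation 2 it was 0.0732, without isolation 3 it was 0.0599 and without isolation 4 it was 0.0369, with log2 differences from 0.22 to 0.26. Without the replicate block it was 1.00. *Dcn* (a fibroblast proteoglycan) was lower in KO cells in the same comparison by -0.61 (adjusted p = 0.00835), as was *Pdgfrb* (a mural receptor) by -0.29 (adjusted p = 0.0289). These were 2 of 11 fibroblast and mural markers, whose median log2 difference was -0.30, where 0.166% of all tested genes were lower. In PBS 1 of the 11 markers was lower in KO cells (0.0191% of all tested genes), and their median was -0.23. Their part in the *Csf3* result was not tested.

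*Il6* had the largest log2 difference between ligand-treated KO and Ctrl cells, -0.66 (95% interval -1.35 to 0.03, adjusted p = 0.579). It was lower in KO cells in 4 of 4 isolations, by -0.12, -0.08, -1.37 and -0.38, from few reads. In PBS the differences of isolations 3 and 4 were -0.84 and -0.92, and isolations 1 and 2 were higher in KO cells. *Il6* did not pass the threshold with ligand, but did in the more liberal fit with no filter on low counts (adjusted p = 0.0137). *Csf1* had -0.10 and *Cx3cl1* 0.11 (adjusted p = 0.641 and 0.610), and the other 5 lay within 0.08 of 0.

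The ligand responses of the 2 genotypes were compared directly, as the KO response minus the Ctrl response. None of the 9 genes was called by edgeR or DESeq2, nor was any of the 15693 tested genes (0% by edgeR). At an unadjusted p under 0.05 there were 0 of the 9, against 3.6% of all tested genes. *Csf3* came nearest, with a difference of log2 fold changes of 0.12 (95% interval -0.01 to 0.25, unadjusted p = 0.0617, adjusted p = 1.00), the fall being smaller in KO cells in 4 of 4 isolations. For *Cxcl2* the difference was 0.14 (-0.10 to 0.38) and for *Ccl2* 0.08 (-0.05 to 0.21), also with the smaller fall in KO cells in 4 of 4 isolations. These intervals do not show that the responses are alike. Both contrasts between ligand-treated groups compare 2 forms of the ligand as well as 2 genotypes, with soluble ENG in excess for Ctrl cells only.

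Other chemokine genes changed in both directions. Of 33 further chemokine ligands 18 could be tested, 10 never exceeded 3 reads in any library, and in Ctrl cells 2 rose and 3 fell with ligand, while in KO cells 2 rose and 2 fell. Of all tested genes, 5.86% rose and 3.83% fell in Ctrl cells, and 3.68% rose and 1.92% fell in KO cells. *Ccl4*, a CC chemokine, fell by 1.22 on the log2 scale in Ctrl cells (from 4.26 ± 1.35 to 1.80 ± 0.428 CPM, SD, n = 4, adjusted p = 1.98e-04) and by 0.94 in KO cells (adjusted p = 0.00174). *Ccl9* fell by 0.66 (adjusted p = 1.29e-04) and by 0.51 (adjusted p = 0.00244). *Cxcl5*, like *Cxcl2* a neutrophil chemokine, fell by 0.58 in Ctrl cells (adjusted p = 0.00436) and had -0.27 in KO cells (adjusted p = 0.371). *Cxcl16*, like *Cx3cl1* made in a membrane-bound form, rose by 0.44 and 0.30 (adjusted p = 3.74e-04 and 0.0175), and *Cxcl12*, the ligand of CXCR4, rose by 0.30 and 0.27 (adjusted p = 1.25e-04 and 6.44e-04). The median log2 fold change of the 18 genes was -0.30 in Ctrl and -0.06 in KO cells.

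Of 31 further cytokine ligands 22 were tested, and 1 rose and 4 fell in Ctrl cells, while 2 rose and 2 fell in KO cells, beside all-gene shares of 5.86% and 3.83% in Ctrl and 3.68% and 1.92% in KO cells. *Clcf1*, a gp130 cytokine like *Il6* and *Lif*, rose by 0.69 in Ctrl cells (from 24.2 ± 3.74 to 38.9 ± 5.51 CPM, adjusted p = 5.54e-05) and by 0.56 in KO cells (adjusted p = 9.58e-04). *Tslp*, an alarmin, fell by 0.96 and 0.81 (adjusted p = 8.44e-04 and 0.00545), and *Kitl* (stem cell factor) by 0.24 and 0.18 (adjusted p = 6.35e-04 and 0.0105). *Tnfsf15* fell by 1.18 in Ctrl cells (adjusted p = 0.0129) and *Tnfsf10* rose by 0.75 in KO cells (adjusted p = 0.0334), both from few reads. Neither was called in the other genotype, although the means leaned the same way. *Tnfsf15* averaged 2.42 CPM with PBS and 1.35 CPM with ligand in KO cells, and *Tnfsf10* 2.63 and 4.38 CPM in Ctrl cells. The median log2 fold change of the 22 genes was -0.05 in both genotypes.

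Receptors that read the 9 ligands on leukocytes had few or no reads: *Ccr2* had at most 3 reads in any library, *Cxcr2* 5, *Cxcr1* 1, *Cx3cr1* 2 and *Csf3r* 6. The gp130 chain *Il6st* was at 44.9 RPKM on average, while *Il6ra* and *Lifr* were at 2.12 and 1.79 RPKM and *Csf1r* at 0.520 RPKM. The sheddases *Adam10* and *Adam17* were at 84.5 and 27.5 RPKM. Of 19 genes in this list 10 were tested, and 1 rose and 1 fell in Ctrl cells, while none rose and 1 fell in KO cells, which is near the 9.69% and 5.59% of all tested genes that changed. *Ackr2*, a decoy receptor that removes CC chemokines, rose by 0.58 in Ctrl cells (adjusted p = 0.0132) and had 0.40 in KO cells (adjusted p = 0.166). *Osmr*, a partner of gp130, fell by 0.20 in Ctrl cells (adjusted p = 0.0326) and had -0.04 in KO cells, and *Cxcr4* fell by 0.72 in KO cells (adjusted p = 0.0282) and had -0.29 in Ctrl cells. The median log2 fold changes were -0.08 and 0.01.

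All 27 genes on the list of regulators of such transcripts were tested. In Ctrl cells 4 rose and 8 fell with ligand, and in KO cells 4 rose and 3 fell, with medians of -0.12 and -0.07. Of all tested genes 5.86% rose and 3.83% fell in Ctrl cells, against 3.68% and 1.92% in KO cells. *Junb*, an AP-1 subunit, rose by 0.97 and 0.81 on the log2 scale (adjusted p = 9.46e-10 and 1.94e-08). *Cebpb* rose by 0.45 and 0.43 (adjusted p = 4.72e-05 and 1.39e-04) and its relative *Cebpd* fell by 0.58 and 0.51 (adjusted p = 4.93e-06 and 4.06e-05). Both encode factors known to act on cytokine promoters. Genes for proteins that degrade cytokine mRNAs went both ways: *Zc3h12a* (regnase-1) rose by 0.20 and 0.29 (adjusted p = 0.00435 and 1.84e-04), and *Zfp36* (tristetraprolin) fell by 0.56 and 0.51 (adjusted p = 1.97e-04 and 9.11e-04). None of the genes in these 4 lists was called between KO and Ctrl cells in PBS or with ligand, or for a difference of responses. Of all tested genes, 0.0191%, 0.255% and 0% were called in these 3 comparisons.

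**Figure D4:**
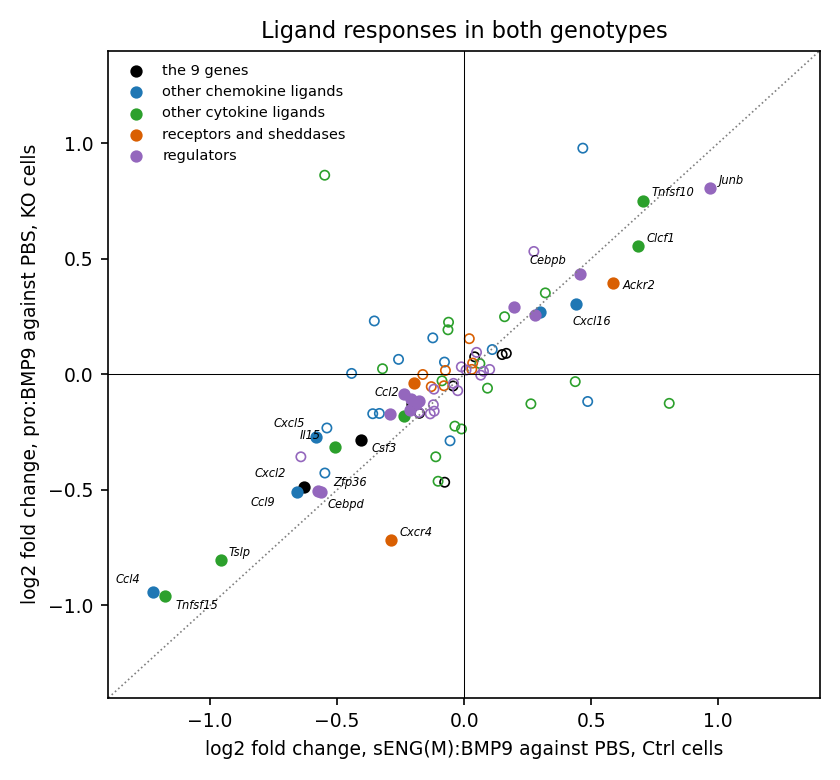
Log2 fold change with sENG(M):BMP9 in Ctrl cells (x) against that with pro:BMP9 in KO cells (y), 1 point per tested gene of the 5 lists, filled where it was called in either, with a dotted line where both are equal. *Cxcl2* and *Csf3* lie in the lower left with *Ccl4*, *Ccl9*, *Tslp*, *Cebpd* and *Zfp36*, and *Junb*, *Clcf1* and *Cxcl16* lie in the upper right.

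The pattern of each gene over the 16 libraries was also set beside that of all tested genes, after the isolation means were taken off. For *Cxcl2* the closest were *Pim1* (a kinase), *Traf2* (an adaptor of TNF receptors) and *Klf6* (a zinc-finger factor), with Pearson r of 0.979, 0.974 and 0.973. For *Csf3* they were *Map3k11* (0.980), *Ccl4* (0.978) and *Sgms1* (0.975). For *Ccl2* they were *Nus1* (0.927), *Usp28* (0.923) and *Bet1l* (0.916), and for *Cxcl1* *Fam131b* (0.913), *Prr13* (0.890) and *Nedd9* (0.889). The closest to *Csf1* was *Cpeb3* (0.922), to *Cx3cl1* *Pear1* (0.920), to *Il6* *Dcaf12* (0.882), to *Lif* *Serpina3h* (0.876) and to *Ccl7* *Sdcbp* (0.860). Among the 9, *Ccl2* ran with *Cxcl1* (0.877) and *Cxcl2* (0.856), and *Cxcl2* with *Csf3* (0.855), while *Csf1* ran against *Ccl2* (-0.63). These values describe 16 libraries that share isolations, treatments and depth.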

How the data were processed

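The authors deposited 1 table of raw counts per gene for 16 libraries of stranded mRNA-seq. Per the submitters' processing notes it was made with HISAT2 2.0.5 and featureCounts 1.5.0-p3 on GRCm39, and DESeq2 1.26.0 is named for their own analysis. The quantile normalisation and ComBat correction of that analysis are not in the deposited counts. The annotation release, the strand setting of the counting and the batch variable of ComBat are not given in the sources used here.

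Counts were tested in R 4.3.3 with edgeR 4.0.16 (quasi-likelihood test, TMM). Genes were kept by filterByExpr with a minimum count of 10 and a minimum total of 15, and 1 model over all 16 libraries had the isolation as a block. P-values were adjusted by Benjamini-Hochberg over 15693 genes at a threshold of 0.05. The 5 comparisons were ligand against PBS in each genotype, KO against Ctrl cells with PBS and with ligand, and the difference of the ligand responses. CPM used TMM library sizes. RPKM used the gene lengths of the deposited table, and variance and likeness used log2 CPM with a prior count of 2.

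The replicate number in the labels is the isolation, and same-numbered libraries deviated together (mean r 0.757 over 24 pairs, lowest 0.670, against -0.251 over 72 other pairs). No 2 libraries of the same group agreed within sampling noise (chi-square per degree of freedom of 10.9 or more in 24 pairs). Pairs across groups were not compared in this way. The scripts were tested on simulated data. Alternatives were no block, DESeq2 1.42.0, DESeq2's size factors, other filters, only the 8 libraries compared, and leaving out each isolation.

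The 9 genes and all lists were chosen with earlier results of these data known. Named besides them were *Eng*, *Smad6*, *Id1*, from each list the genes that passed in either ligand comparison (at most 5, by smallest adjusted p), and the 3 genes most like each of the 9. Receptors named for their low counts, markers and *Csf2*, *Cxcl3* and *Ccl12* were chosen after their values were seen. Gene positions and strands are from the deposited table, overlapping genes from GENCODE and promoters from RefSeq.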

Additional observations from a re-analysis of the deposited data

Results flagged for a closer look

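*Cxcl2* in KO PBS was at 284 CPM in isolation 3, apart from the other 3 isolations at 416 to 437 CPM. The difference of the *Il6* ligand responses (KO minus Ctrl, log2) was 0.54 in isolation 4, apart from -0.71 to -0.53 in the others. Both stood apart by the gap of 1 sample to its nearest neighbour relative to the range of its group of 4. Of 81 such groups tested 2 stood apart, where chance gives about 1 in 20.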

How the results depend on the processing

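Over all alternatives, 398 of 441 fold changes of the 9 genes kept direction and side of the threshold, 9 lost the call, 11 gained one and 23 changed sign. The falls of *Cxcl2* and *Csf3* in both genotypes and of *Ccl2* in Ctrl cells lost the call only without the replicate block, and kept it in 4 of 4 fits without 1 isolation. Without the replicate block, 167, 91, 1 and 1 genes were called in Ctrl ligand, KO ligand, KO against Ctrl in PBS and with ligand, with 0, 0 and 0 of the 9 in Ctrl ligand, KO ligand and KO against Ctrl with ligand, and *Cxcl1* turned to 0.0152 (PBS) and 0.0171 (ligand). DESeq2 called 7 genes between genotypes in PBS and 141 with ligand. With no filter on low counts these were 204 and 517, with 52 for the difference of responses, and 6, 4, 1 and 2 of the 9 were called in Ctrl ligand, KO ligand, PBS and ligand. Of the 29339 genes in that fit, 1765 were called in Ctrl ligand and 1102 in KO ligand. In fits of only the 8 libraries, 4 of the 9 were called in Ctrl ligand (1 of them higher, *Cx3cl1*), 4 in KO ligand, and 1 gene between genotypes in PBS. Those fits called 1573 of 15047 genes in Ctrl ligand and 1084 of 14946 in KO ligand. The cause of these shifts was not tested.

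Without 1 isolation, genes called ranged from 1058 to 1392 (Ctrl ligand), 573 (without isolation 2) to 745 (KO ligand), 1 (without 3) to 69 (without 4) between genotypes in PBS, and 6 (without 1) to 175 (without 4) with ligand, with 15 without isolation 2 and 16 without isolation 3. Of the 9, these fits called 3 to 4 in Ctrl ligand, 2 to 2 in KO ligand and 0 to 1 between genotypes with ligand. Signs changed in these ranges of log2 values: *Ccl7* -0.0711 to 0.0157 and *Il6* -0.472 to 0.135 in Ctrl ligand. In PBS between genotypes they were *Ccl2* -0.0583 to 0.0203, *Cxcl1* -0.0682 to 0.0640, *Cxcl2* -0.184 to 0.0404, *Il6* -0.556 to 0.127 and *Lif* -0.0667 to 0.0201. With ligand between genotypes they were *Ccl7* -0.0317 to 0.0649, *Cxcl1* -0.0721 to 0.0639, *Cxcl2* -0.0162 to 0.152 and *Lif* -0.0672 to 0.0466. For the difference of responses they were *Ccl7* -0.0665 to 0.0520, *Cxcl1* -0.0526 to 0.0754 and *Lif* -0.000496 to 0.0945. None of these values was called. Few reads limit *Il6*.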

Other observations

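*Csf2*, the third colony-stimulating factor gene, was at 42.2 RPKM on average (25.8 to 60.9 over the 16 libraries), with log2 fold changes of 0.06 in Ctrl (adjusted p = 0.815, edgeR) and 0.05 in KO cells (adjusted p = 0.933). *Cxcl3*, of the same family as *Cxcl1* and *Cxcl2*, was lower with ligand in 4 of 4 isolations of each genotype without passing the threshold (-0.36, adjusted p = 0.0687, and -0.17, adjusted p = 0.627). So was *Ccl12*, of the family of *Ccl2* and *Ccl7* (-0.55, adjusted p = 0.0506, and -0.43, adjusted p = 0.175). These 3 genes were chosen after their values were seen.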
